A study of Homo sapiens with 61 samples.

Results

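The 10 genes described here, which the transcription factor p53 is long known to switch on, were followed through the peak lists. They are CDKN1A, GADD45A, BTG2, SESN1, SESN2, MDM2, PPM1D, BBC3, FAS and TP53INP1. They were listed by name as known p53 targets, with earlier results of these data in view, and are 10 of 19970 protein-coding genes. Trimethylated lysine 4 of histone H3 (H3K4me3), a mark of active and poised start sites, and XPC, the protein that senses distorted DNA for nucleotide excision repair, had been mapped by chromatin immunoprecipitation and sequencing. For each gene, the length under called peaks was taken in a promoter window of 4 kb (2 kb on each side of the start site, hg38) and in the gene body. The height of H3K4me3 was the highest fold enrichment over input that a peak in the window carried.

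In unstressed cells p53 is kept scarce by the ubiquitin ligase MDM2. DNA damage, UV photoproducts included, activates the kinases ATM and ATR, p53 escapes degradation, and it binds response elements made of a pair of decamers near its target genes. Among these targets, CDKN1A (p21) inhibits cyclin-dependent kinases, GADD45A and BTG2 act in arrest and the response to damage, and the sestrins SESN1 and SESN2 restrain TOR signalling and oxidative stress. MDM2 and the phosphatase PPM1D (WIP1) feed back on p53, while BBC3 (PUMA), the death receptor FAS and TP53INP1 belong to its cell death arm.

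The cells were U2OS, a human osteosarcoma line with wild-type p53. They were either wild-type (WT) or ASH1L-/-, in which CRISPR/Cas9 deletions disrupt the histone methyltransferase ASH1L. Each genotype was left unirradiated or irradiated with UV-C at 20 J/m2 and collected 1 h or 3 h later, with 3 libraries for each antibody, genotype and time, except for 4 XPC libraries of unirradiated WT cells. The labels call them biological replicates. The knockout cells were raised from isolated colonies, and the sources used here do not give how many were sequenced, so a clonal trait and the loss of ASH1L cannot be told apart here. XPC-/- cells, in which XPC immunoprecipitation gives background, and input chromatin entered only as controls of the peak lists.

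The 18 H3K4me3 lists held 72984 to 142688 peaks over 70.1 to 132 Mb, and all 3 unirradiated lists of a genotype covered less of the genome (70.1 to 93.3 Mb in WT, 74.3 to 91.7 Mb in ASH1L-/-) than most irradiated ones (97.2 to 132 Mb and 79.4 to 108 Mb). Of the 19 XPC lists, 17 held exactly 500000 peaks. The deposited lists give no read counts. The study lists the reads of each library, which were not used here, so no value is adjusted for sequencing depth. Of 7 mesenchymal marker promoters, 5 carried H3K4me3 in all 18 libraries, COL1A2 and TWIST1 in none, and of 4 blood markers none did. Of 5 epithelial markers, EPCAM carried the mark in all 18 libraries and KRT5 in 4, and of 3 hepatocyte markers APOA1 did in 16, while the others carried it in none. The promoter of ASH1L carried the mark in all 18, but its deleted exons lie elsewhere, so this checks nothing about the knockout.

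Response elements were looked for within 3 kb of each start site, as 20 bases that match the p53 consensus (both strands, which are alike for this palindrome) with the 4 core C and G letters kept and at most 2 of the other 16 letters differing. Such a match lay near 5 of the 10 genes and near 929 of all 19970 genes (4.65%). With 3 differing letters allowed, 7 of the 10 and 25.4% of all genes had one. The best match of each of the 5 genes is shown because its place relative to the mark can then be read, 5′ to 3′ along the gene (hg38, GENCODE 44), with the 20 matched bases in capitals.
CDKN1A: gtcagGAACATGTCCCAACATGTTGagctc
MDM2: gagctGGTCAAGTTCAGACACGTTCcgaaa
GADD45A: gtacaGAACATGTCTAAGCATGCTGgggac
BTG2: gggtcACGCATGTTCAGGCATGCATggaat
FAS: ctcctGGACAAGCCCTGACAAGCCAagcca
The CDKN1A match (chr6:36676449-36676468) lay 2.25 kb upstream of the start site, just outside the window, and the BTG2 match (chr1:203303642-203303661) 1.87 kb upstream. H3K4me3 peaks covered neither in any of the 18 libraries. The MDM2 match (chr12:68808923-68808942) and the FAS match (chr10:88991309-88991328) lay in intron 1, 0.756 kb and 0.521 kb downstream of the start site, and the GADD45A match (chr1:67686775-67686794), which differed from the consensus at 1 letter, lay in intron 3, 1.58 kb downstream. All 3 of these were covered in all 18 libraries. A match is a description of letters, and binding of p53 was not measured here.

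At the CDKN1A start site RefSeq gives the following 120 bases just upstream (GRCh38.p14, chr6:36678594-36678713, plus strand), with each GC box (GGGCGG, looked for on both strands) of the given strand in capitals.
CDKN1A: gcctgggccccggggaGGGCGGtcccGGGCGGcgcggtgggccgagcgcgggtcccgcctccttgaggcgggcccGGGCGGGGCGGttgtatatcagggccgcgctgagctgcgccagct
They are shown because they lie in the upstream 2 kb, of which 0.518 to 0.625 kb were covered in WT cells at 1 h. In the 250 bases upstream of a start site a GC box was present in 6 of the 8 target genes that the promoter table held and in 56.7% of 15315 promoters, and the TATA box TATAAA in none of the 8 and in 9.24%. The letters held for BBC3, one of the genes without a GC box, belong to another RefSeq start, over 1 kb from the start site of its window, and so do not describe that window's start.

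Before irradiation all 10 promoters carried H3K4me3 in every library. In unirradiated WT cells the window was covered for 3.77 ± 0.20 kb (mean ± SD, n = 3) at SESN1 and 3.72 ± 0.146 kb at TP53INP1, close to its full length, and for only 2.03 ± 0.0316 kb at SESN2 and 2.0 ± 0.184 kb at CDKN1A. BBC3, PPM1D, MDM2, GADD45A, BTG2 and FAS lay between in that order, from 3.21 ± 0.602 to 2.37 ± 0.101 kb. Each gene's libraries overlapped those of the next in this order, except those of FAS and SESN2. The median of the 14374 windows covered in these libraries was 2.36 kb. The highest fold enrichment ran from 14 ± 2.72 at SESN1 to 7.09 ± 1.75 at BBC3, around a median of 9.12, and covered length and height ranked the genes differently: TP53INP1 held place 2 in length and place 8 in height.

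The sides of the start site differed. The 2 kb downstream of the start site were nearly full at all 10 genes, with at least 1.9 of 2 kb covered in 161 of 180 values, against 20 of 180 upstream. More room for a change in covered length was therefore left upstream at most of the genes, and SESN1 and TP53INP1, already close to 4 kb, had little room to gain. At FAS in WT cells the mean still rose more downstream (1.73 to 1.97 kb) than upstream (0.643 to 0.764 kb).

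After UV, H3K4me3 spread over more of the promoter at 7 of the 10 genes in WT cells (irradiated, the mean of 1 h and 3 h, against unirradiated; limma, adjusted p under 0.05), where 30.5% of 14745 promoters rose. The 7 were GADD45A, FAS, SESN2, BTG2, CDKN1A, TP53INP1 and SESN1, by 0.230 to 0.615 kb, and none fell, whereas once every library was given the same total length 5 fell and none rose. A window cannot hold more than 4 kb, while the library totals of WT cells rose after UV. Windows nearly full before UV, as at SESN1 and TP53INP1, therefore had to fall under that scaling, which tells nothing about the mark there. The median change was 0.290 kb over the 10 genes and 0.203 kb over all promoters. Peak height rose at 5 of 10 (SESN2, CDKN1A, FAS, MDM2 and GADD45A), against 27.1% of all promoters, with a median of 0.56 on the scale log2(fold enrichment + 1) against 0.36 over all. In ASH1L-/- cells covered length rose at 3 of the 10 (MDM2, SESN1 and PPM1D; 24% of all promoters) and height at 1 (FAS; 2.81% of all promoters). With 10 genes, 3 calls are near a share of 24%. The difference between the genotypes was tested by itself and did not pass at any of the 10.

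**Figure D1:**
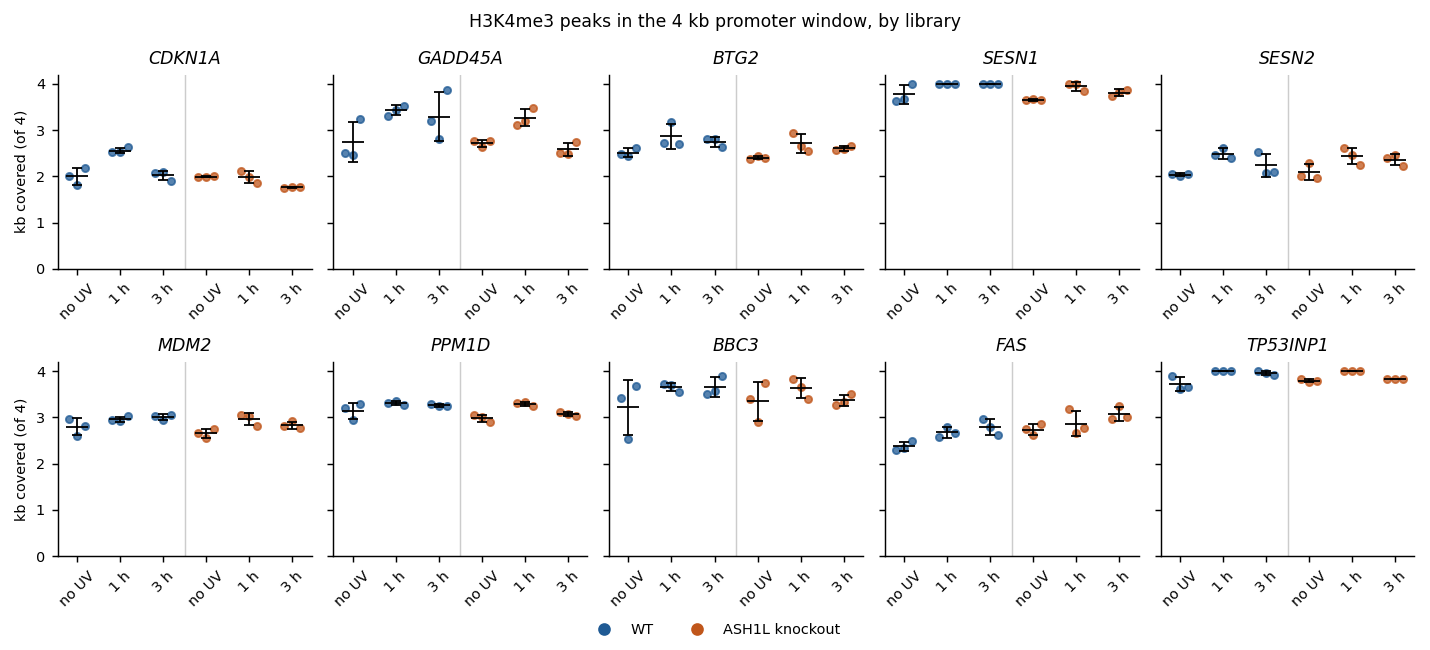
H3K4me3 peak cover of the 4 kb promoter window (kb, y axis from 0) at the 10 genes, by genotype and time after UV (x axis). Points are libraries, and bars are the mean ± SD of 3. CDKN1A stood at 2.52 to 2.62 kb in WT cells at 1 h, above all its other libraries, while SESN1 and TP53INP1 lay near the full window throughout.

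CDKN1A (chr6:36676714-36680713) was marked over a wider stretch at 1 h in WT cells. Its window held 2.0, 1.82 and 2.19 kb in the unirradiated WT libraries, 2.52, 2.53 and 2.62 kb at 1 h and 2.07, 2.09 and 1.91 kb at 3 h. All 3 libraries at 1 h lay above the unirradiated ones, and those at 3 h overlapped them. The change was 0.286 ± 0.0813 kb (± SE, adjusted p = 0.02), made up of 0.555 ± 0.0939 kb, adjusted p = 0.00224 at 1 h and 0.0183 ± 0.0939 kb, adjusted p = 0.908 at 3 h. The gain lay upstream of the start site, where 0, 0 and 0.187 kb were covered before UV, 0.518, 0.527 and 0.625 kb at 1 h and 0.067, 0.306 and 0.055 kb at 3 h. The lncRNA gene DINOL starts at −155 bases on the opposite strand, and the upstream mark cannot be told apart between both start sites. Over the downstream 2 kb alone the value was −0.000833 kb.

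The CDKN1A window of ASH1L-/- cells held 1.98, 1.98 and 2.01 kb before UV, 2.12, 1.99 and 1.85 kb at 1 h and 1.74, 1.77 and 1.77 kb at 3 h, and the upstream 2 kb never more than 0.121 kb. The libraries at 1 h overlapped the unirradiated ones, and all 3 at 3 h lay below them. The change was −0.116 ± 0.0813 kb (adjusted p = 0.281), against +0.286 kb in WT cells. The difference of both changes, ASH1L-/- minus WT, was −0.403 ± 0.115 kb, with an adjusted p of 0.125 over all promoters, so it did not pass.

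The height of the CDKN1A peak differed between the genotypes at 3 h taken alone, and not over both times. Its fold enrichment was 9.03, 7.08 and 10.1 in unirradiated WT cells, 16.3, 17 and 10.7 at 1 h and 15.5, 15.7 and 14.5 at 3 h. The ASH1L-/- libraries gave 7.89, 7.19 and 8.54, then 12.8, 11.7 and 10.6 and then 6.41, 7.24 and 7.26. Both genotypes stood above their unirradiated libraries at 1 h, and at 3 h only the WT libraries did. On the scale log2(fold enrichment + 1), the change was 0.71 ± 0.17 in WT (adjusted p = 0.00435) and 0.18 ± 0.17 in ASH1L-/- cells (adjusted p = 0.541), and their difference −0.53 ± 0.24 (adjusted p = 0.252). Taken at 3 h alone, the difference was −0.90 ± 0.28, adjusted p = 0.0306, when 13% of all promoters passed in either direction. CDKN1A was the only one of the 10 genes to pass, which is near that share. At 3 h height rose at 12.1% of all promoters in WT and at 0.509% in ASH1L-/- cells. No fit at 3 h alone was centred on the library median.

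GADD45A (chr1:67683201-67687200) had the largest change of the 10 in covered length. Its window held 2.51, 2.46 and 3.25 kb in unirradiated WT libraries, 3.31, 3.44 and 3.53 kb at 1 h and 3.19, 2.81 and 3.86 kb at 3 h. The third unirradiated library, at 3.25 kb, reached into the irradiated range, while the other 2 lay below all irradiated ones. The change was 0.615 ± 0.192 kb (adjusted p = 0.029) in WT and 0.209 ± 0.192 kb (adjusted p = 0.411) in ASH1L-/- cells, where libraries at 1 h held 3.12, 3.21 and 3.47 kb and those at 3 h 2.51, 2.49 and 2.74 kb around an unirradiated range of 2.63 to 2.75 kb. The ASH1L-/- libraries at 1 h were thus above the unirradiated ones and the rest were not. Its fold enrichment ran from 7.77 to 13.6 before to 12.4 to 20.9 after UV in WT cells, a rise of 0.57 ± 0.19 on the log2 scale of height (adjusted p = 0.0259). Values in ASH1L-/- cells were 13.8, 12 and 8.77 at 1 h and 5.51, 5.77 and 5.59 at 3 h, against 5.94 to 7.33 before.

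BTG2 (chr1:203303519-203307518), an antiproliferative gene, held 2.49, 2.43 and 2.61 kb in unirradiated WT libraries, 2.71, 3.18 and 2.71 kb at 1 h and 2.8, 2.81 and 2.62 kb at 3 h. All 6 irradiated libraries lay above all 3 unirradiated ones, and the same held in ASH1L-/- cells (2.38 to 2.44 kb before, 2.54 to 2.94 kb after). The change was 0.294 ± 0.103 kb in WT (adjusted p = 0.0441) and 0.254 ± 0.103 kb in ASH1L-/- cells (adjusted p = 0.0806), of which only the first passed, and the difference was −0.0402 ± 0.146 kb. Its fold enrichment at 1 h was 16.6, 21.3 and 10.7 in WT and 12.6, 11.5 and 8.86 in ASH1L-/- cells, and at 3 h the libraries of both genotypes overlapped their unirradiated ones. The antisense gene BTG2-DT starts at −204 bases.

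The separation seen at BTG2 was met by 4 of the 10 genes in WT cells (BTG2, SESN2, FAS and TP53INP1) and by 22.2% of all promoters, and in ASH1L-/- cells by 3 (MDM2, BTG2 and SESN1) and by 24.6%. With 10 genes, neither count stands apart from the share of all promoters.

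Of the sestrins, SESN2 (chr1:28257518-28261517) held 2.05, 2.0 and 2.05 kb before UV in WT cells, 2.46, 2.61 and 2.39 kb at 1 h and 2.52, 2.08 and 2.1 kb at 3 h. The unirradiated libraries hardly varied, and the irradiated ones all lay above them, 2 of those at 3 h only just. The change was 0.329 ± 0.11 kb in WT (adjusted p = 0.0376) and 0.307 ± 0.11 kb in ASH1L-/- cells (adjusted p = 0.0538), where the range was 1.97 to 2.293 kb before and 2.22 to 2.61 kb after UV. The gain lay upstream, 0.456, 0.614 and 0.394 kb at 1 h from 0.053, 0 and 0.048 kb. SESN2 also had the largest change in height, with a fold enrichment of 17.9, 19.2 and 13.1 at 1 h from 6.76, 4.44 and 13.5 in WT cells, where the third unirradiated library overlapped the irradiated ones (0.81 ± 0.28 on the log2 scale of height over both times, adjusted p = 0.0357).

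SESN1 (chr6:109092847-109096846) shares its window with CEP57L1, a protein-coding gene that starts at −264 bases on the opposite strand. Of the 3 annotated SESN1 starts only 1 lies in the window, and the last lies 85.9 kb downstream. The window was full in all 6 irradiated WT libraries, after 3.63, 3.68 and 4.0 kb before UV, so the change of 0.23 ± 0.0667 kb (adjusted p = 0.022) was bounded by the window. Without ASH1L it went from 3.64, 3.67 and 3.65 kb to 4.0, 4.0 and 3.84 kb at 1 h and 3.73, 3.81 and 3.87 kb at 3 h, a rise of 0.22 ± 0.0667 kb (adjusted p = 0.0284). All irradiated ASH1L-/- libraries exceeded the unirradiated ones. Its fold enrichment ranged from 10.9 to 19.3 in WT and from 11.4 to 17.3 in ASH1L-/- cells, with no call.

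Of the feedback genes, MDM2 (chr12:68806177-68810176) held 2.96, 2.61 and 2.82 kb in unirradiated WT libraries and 2.92 to 3.04 kb after UV, a change of 0.188 ± 0.0788 kb (adjusted p = 0.0759). The ASH1L-/- libraries held 2.67, 2.56 and 2.75 kb before, 3.04, 3.03 and 2.81 kb at 1 h and 2.82, 2.91 and 2.76 kb at 3 h, a rise of 0.238 ± 0.0788 kb (adjusted p = 0.0399). The 2 changes were of like size, and their difference was 0.0495 ± 0.111 kb. The MDM2 peak was also higher in irradiated WT cells, 15.2, 18.3 and 12.9 at 1 h and 10.9, 12.1 and 10.1 at 3 h from 8.83, 6.29 and 10 (0.60 ± 0.18 on the log2 scale, adjusted p = 0.0161). MDM2 has a further start site downstream, in intron 1, which the window includes.

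PPM1D (chr17:60598193-60602192) changed by 0.15 ± 0.0686 kb in WT (adjusted p = 0.0974) and rose by 0.206 ± 0.0686 kb in ASH1L-/- cells (adjusted p = 0.0405), from 3.04, 3.01 and 2.89 kb to 3.31, 3.33 and 3.25 kb at 1 h and 3.12, 3.08 and 3.04 kb at 3 h. It was the only one of the 10 whose peak height differed between the unirradiated genotypes, with fold enrichments of 11.4, 13.1 and 10.5 in WT and 7.01, 7.15 and 6.66 in ASH1L-/- cells (−0.67 ± 0.21 on the log2 scale, adjusted p = 0.0376, 10.9% of all promoters lower). The groups did not overlap. Over all promoters this contrast had a median of −0.30, against −0.36 over the 10 genes, and after the median of each library was taken off PPM1D no longer passed (72.2% of all calls then higher, against 8.11%). The call was also lost without unirradiated WT library 1 or 3 or any 1 unirradiated ASH1L-/- library, and 3 and 2 genes passed without unirradiated WT library 2 and without ASH1L-/- library 1 at 1 h. Over all promoters 360 to 954, 4059 and 2290 then passed in turn, against 1610 lower and 142 higher in the main fit.

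Of the death genes, FAS (chr10:88988798-88992797) held 2.291, 2.35 and 2.49 kb before UV in WT cells, 2.58, 2.8 and 2.65 kb at 1 h and 2.96, 2.8 and 2.62 kb at 3 h, all irradiated libraries above the unirradiated ones. The rise was 0.358 ± 0.111 kb (adjusted p = 0.0277). ASH1L-/- libraries held 2.75, 2.61 and 2.85 kb, then 3.18, 2.66 and 2.76 kb and 2.96, 3.25 and 3.01 kb, a change of 0.234 ± 0.111 kb (adjusted p = 0.123) from a start 0.361 ± 0.128 kb above WT (adjusted p = 0.131). The downstream 2 kb held 1.74, 1.78 and 1.67 kb in unirradiated WT libraries and were full in all 9 ASH1L-/- libraries. There the unirradiated genotypes differed by 0.269 ± 0.0324 kb, adjusted p = 0.000372 (5.14% of all promoters in either direction), and the UV changes differed by −0.238 ± 0.0397 kb, adjusted p = 0.01 (1.57%). No gain could be measured in ASH1L-/- cells over 2 kb that were already full, and these equal values narrow the spread from which the SE was taken. ACTA2 starts there on the opposite strand, 534 bases downstream.

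FAS was also the only one of the 10 whose height rose in both genotypes over both times. Its fold enrichment was 11.8, 8.56 and 12.8 before, 15.6, 15.9 and 21 at 1 h and 17.6, 20.3 and 14.3 at 3 h in WT cells (0.62 ± 0.19 on the log2 scale, adjusted p = 0.0183). Fold enrichments in ASH1L-/- cells were 7.35, 6.56 and 6.56, 16.1, 9.43 and 10.5 and 10.1, 15.5 and 13 (0.75 ± 0.19, adjusted p = 0.0282). No irradiated library overlapped the unirradiated ones of its genotype, and the difference of the changes was 0.14 ± 0.27.

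TP53INP1 (chr8:94947379-94951378) was nearly full before UV, with 3.89, 3.61 and 3.67 kb in WT libraries, and held 3.92 to 4.0 kb after it, a rise of 0.259 ± 0.0494 kb (adjusted p = 0.00324). Most of the irradiated values sat at the window's limit, so their spread, and with it the SE and p, was bounded by the window. The window was full in ASH1L-/- cells at 1 h only, with 3.83, 3.83 and 3.83 kb at 3 h, and the change of 0.124 ± 0.0494 kb did not pass (adjusted p = 0.0754). NDUFAF6 starts at −953 bases on the opposite strand. BBC3 (chr19:47229200-47233199) was the most variable, 3.43, 2.54 and 3.68 kb in unirradiated WT libraries, and its change of 0.442 ± 0.21 kb (adjusted p = 0.108) did not exceed that spread. Its fold enrichment in WT cells was 14.3, 16.1 and 10.4 at 1 h, above 5.6 to 9.02 before UV, and 5.78, 8.22 and 6.8 at 3 h, within that range.

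**Figure D2:**
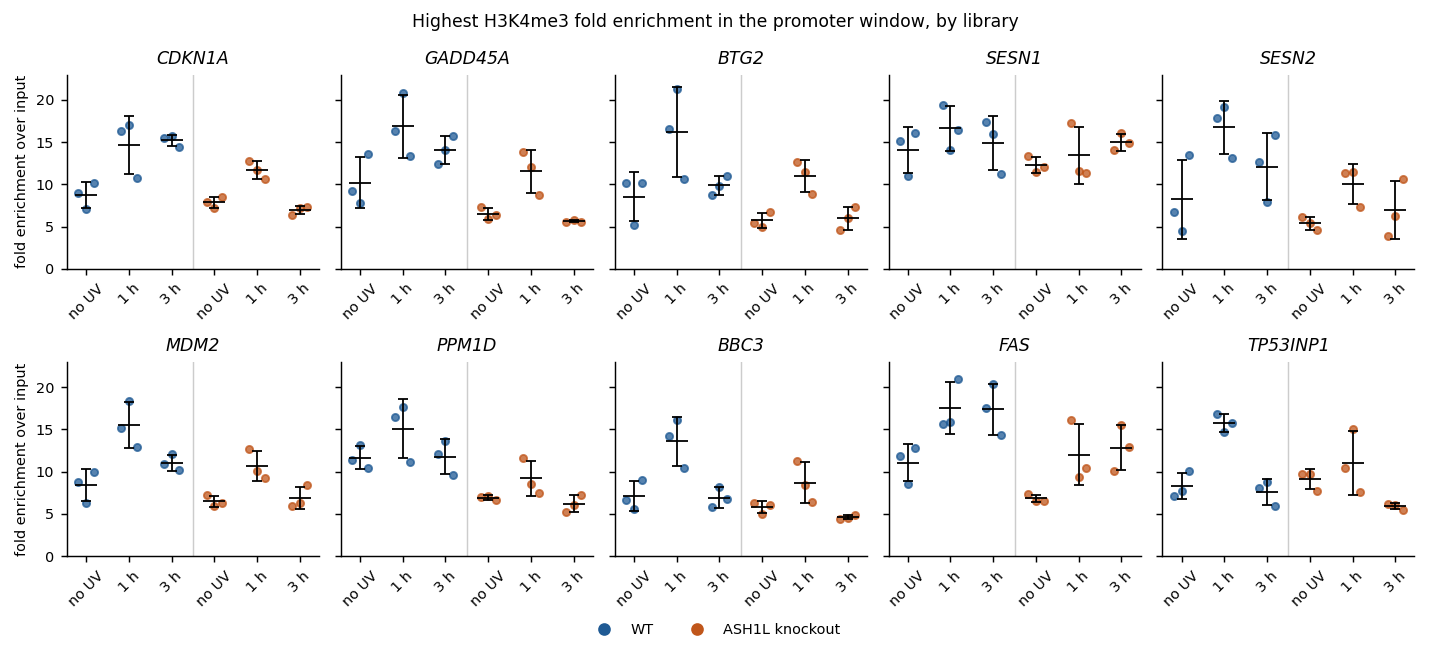
Highest H3K4me3 fold enrichment over input in the promoter window (y axis from 0) at the 10 genes, by genotype and time after UV. Points are libraries, and bars are the mean ± SD of 3. At CDKN1A the WT libraries stayed at 14.5 to 15.7 at 3 h while the ASH1L-/- libraries stood at 6.41 to 7.26, and at TP53INP1 and BBC3 only the libraries at 1 h were high in WT cells.

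Each time was also set against the unirradiated libraries by itself. The times were not tested against each other. At 1 h alone covered length had risen at 6 of the 10 genes in WT cells (CDKN1A, GADD45A, BTG2, SESN1, SESN2 and TP53INP1; 25.7% of all promoters), and at 3 h alone at 2 (FAS and TP53INP1; 11.8%). Without ASH1L it had risen at 4 at 1 h (MDM2, SESN1, PPM1D and TP53INP1; 22.9%) and at none by limma at 3 h (lowest adjusted p of the 10 = 0.0937, at FAS; 11.6%; the same by limma without trend and robust estimation was not run by time). Height had risen at 8 of the 10 in WT cells at 1 h, all but SESN1 and PPM1D (34.8% of all promoters), and at 1, CDKN1A, at 3 h (12.1%). Height in ASH1L-/- cells had risen at 5 at 1 h (CDKN1A, MDM2, GADD45A, BTG2 and FAS; 29.7%) and at 1, FAS, at 3 h (0.509%).

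By side of the start site, the upstream 2 kb rose at 4 genes in WT cells (CDKN1A, BTG2, SESN1 and SESN2; 18.5% of all promoters) and at 3 in ASH1L-/- cells (MDM2, SESN1 and PPM1D; 17.9%). The downstream 2 kb rose at 2 in WT cells (GADD45A and FAS; 9.14%), by 0.138 ± 0.015 kb at GADD45A and 0.238 ± 0.0281 kb at FAS, each to full or nearly full cover.

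**Figure D3:**
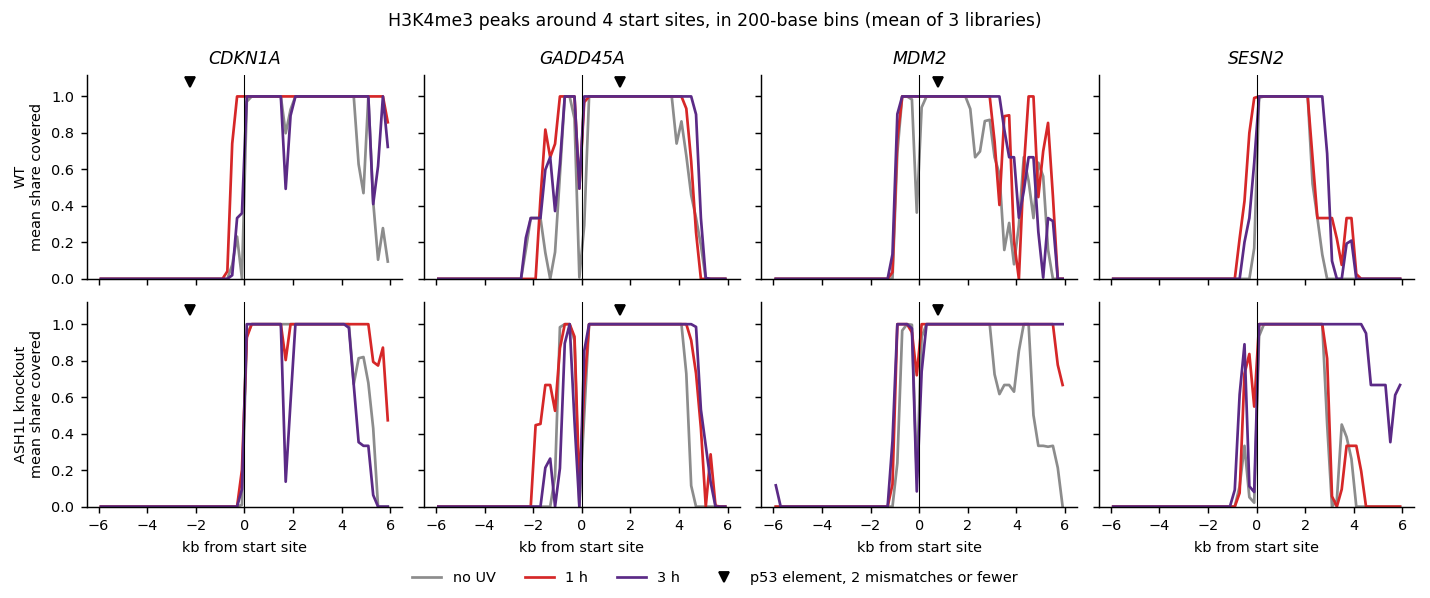
Share of each 200-base bin under H3K4me3 peaks (y axis, mean of 3 libraries) by distance from the start site (x axis, kb, downstream to the right) at CDKN1A, GADD45A, MDM2 and SESN2, with WT above and ASH1L knockout below. Lines are unirradiated, 1 h and 3 h, and triangles mark p53 element matches with at most 2 mismatches. The cover upstream of CDKN1A at 1 h was seen in WT cells. Cover beyond 3 kb downstream was longest in irradiated ASH1L-/- cells, at 1 h and 3 h at MDM2 and only at 3 h at SESN2.

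These counts depended on scaling and on single libraries. When lengths were scaled so that each library had the same total, all 10 genes turned to lower values in WT cells and 5 passed as falls (MDM2, BTG2, SESN1, PPM1D and TP53INP1), as did most promoters that passed: 390 of 8102 were higher, against 4494 of 4498 unscaled, and the median of all promoters moved from 0.203 to −0.615 kb, with −0.692 kb over the 10 genes. Scaled falls of nearly full windows, as at SESN1 and TP53INP1, were fixed in advance, since the window could not grow with the total. Without unirradiated WT library 1 or 2, covered length rose at 2 and 1 of the genes, and without library 2 of WT at 1 h or library 1 of WT at 3 h at 4. Over all promoters 2639, 914, 3038 and 3168 then passed in either direction, against 4498. Height rose at 0 without unirradiated WT library 2, at 3 without library 2 of WT at 1 h, and at 1 after the median of each library was taken off (70.7% of all calls then higher, against 99.7%). With those libraries left out in turn, height passed at 878 and 2385 of all promoters, against 3992 that rose in the main fit. In ASH1L-/- cells, scaling took covered length to 0 calls, with a median of −0.140 kb over all promoters and 107 of 147 calls higher (3535 of 3573 unscaled). The 3 calls there fell to 0 without unirradiated library 1 or 2 or library 1 or 2 at 1 h, to 1 without unirradiated library 3 or library 1 or 2 at 3 h, and rose to 5 without library 3 at 1 h, and the call of height at FAS was lost without any 1 unirradiated library, library 1 at 1 h or library 2 at 3 h. Over all promoters covered length then passed at 1210 to 2591, 2623 to 2888 and 4268 in turn, against 3573. Height then passed at 70 to 176, against 415 that rose in the main fit. When only peaks with a fold enrichment of 5 or more were kept, no gene of the 10 passed in WT cells and 1 in ASH1L-/- cells. The calls over all promoters at that threshold are not given here, so these counts cannot be set against them.

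The genotypes were then compared directly. Before UV, covered length passed at none of the 10 genes (limma; 3.98% of all promoters), with FAS furthest apart. By limma, 1 of the 10 and 2848 of all 14745 promoters were at an unadjusted p under 0.05. None of the 10 passed by limma without trend and robust estimation. Without unirradiated WT library 2, 1 gene passed, PPM1D, as lower in ASH1L-/- cells. Over all promoters 691 then passed, against 587 with every library. The difference of the UV changes in covered length passed at none of the 10 either (1.06% of all promoters), nor without trend and robust estimation, although CDKN1A passed without unirradiated WT library 3. At an unadjusted p under 0.05 by limma were 1 of the 10, CDKN1A, and 1846 of all 14745 promoters. Without that library 381 of all promoters passed, against 156 with every library. The differences of the UV changes in height passed at none of the 10 (4.04%), nor without trend and robust estimation. CDKN1A was again the only one of the 10 at an unadjusted p under 0.05 by limma, with 2561 of all promoters. The median difference, ASH1L-/- minus WT, was −0.0822 kb for covered length against −0.0217 kb over all promoters, and −0.28 for height against −0.16. Within 1 kb of the start site, 1 gene differed before UV, TP53INP1 at −0.158 kb (adjusted p = 0.0143; 3.75% of all promoters), and 1 in its UV change, GADD45A at −0.39 ± 0.0737 kb, adjusted p = 0.0213 (1.24%).

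In gene bodies, the transcribed stretch downstream of the promoter window less any other gene's window, 2 genes passed in each genotype. GADD45A, only 3.13 kb long, had no body to measure, so 9 genes were tested. Cover rose in WT cells at 2, CDKN1A and BTG2 (19% of 12403 bodies rose), and in ASH1L-/- cells at 2 others, MDM2 and PPM1D (8.2%). The median change over the 9 was 0.272 kb in WT and 0.609 kb in ASH1L-/- cells, against 0.429 and 0.262 kb over all bodies.

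The CDKN1A body held 4.58, 3.95 and 5.73 kb in unirradiated WT libraries, 6.45, 6.39 and 6.35 kb at 1 h and 6.15, 5.93 and 6.38 kb at 3 h, of 6.62 kb measured. All irradiated libraries lay above all unirradiated ones, and those at 1 h covered nearly all of the body. The rise was 1.52 ± 0.41 kb (adjusted p = 0.0226). The ASH1L-/- bodies held 3.14, 3.01 and 4.17 kb, 5.39, 5.34 and 5.05 kb and 3.24, 2.39 and 3.15 kb, so the libraries at 1 h were higher and those at 3 h overlapped the unirradiated ones, as at its promoter height (0.653 ± 0.41 kb, adjusted p = 0.313). BTG2 rose by 0.529 ± 0.146 kb in WT cells (adjusted p = 0.0246), from 1.53, 1.27 and 1.24 kb to 1.67 to 2.08 kb of 2.08 kb measured.

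The MDM2 change passed in ASH1L-/- cells. Its body held 1.56, 1.05 and 2.79 kb in unirradiated WT libraries, 2.46, 2.72 and 3.14 kb at 1 h and 2.54, 1.49 and 3.55 kb at 3 h, and these ranges overlapped (0.849 ± 0.499 kb, adjusted p = 0.226). The ASH1L-/- libraries held 3.04, 1.75 and 3.67 kb, then 4.49, 5.12 and 5.23 kb and 5.51, 5.45 and 5.23 kb, every irradiated library above every unirradiated one, a rise of 2.35 ± 0.499 kb (adjusted p = 0.0143). The peaks that touched the promoter window reached 3.4 ± 0.493 kb downstream of the start site in unirradiated ASH1L-/- cells, 6.2 ± 0.483 kb at 1 h and 6.91 ± 0.668 kb by 3 h (means ± SD of 3 libraries), against 2.7 ± 0.704, 3.34 ± 0.354 and 4.13 ± 0.716 kb in WT cells. The difference of the UV changes was 1.5 ± 0.706 kb (adjusted p = 0.311) and did not pass.

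PPM1D rose in ASH1L-/- cells from 2.03, 1.93 and 1.82 kb to 2.53 to 2.55 kb over all 6 irradiated libraries (0.609 ± 0.162 kb, adjusted p = 0.0337), and changed by 0.248 ± 0.162 kb in WT cells. SESN2 stood out at a single time, with 4.7, 4.08 and 2.57 kb at 3 h in ASH1L-/- cells, against 0.847, 1.41 and 1.09 kb before and 0.91, 1.81 and 0.977 kb at 1 h. Over both times its change of 1.39 ± 0.42 kb did not pass (adjusted p = 0.0526), and at 3 h alone it did (2.67 ± 0.485 kb, adjusted p = 0.00646), as did MDM2 (2.58 ± 0.577 kb, adjusted p = 0.0146), when 9.09% of all bodies rose. In WT cells the SESN2 body held 0.241 to 1.79 kb over all 9 libraries.

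Before UV no body of these genes passed between the genotypes by limma (0.621% of all bodies). At an unadjusted p under 0.05 were 1 gene, CDKN1A at −1.32 ± 0.474 kb (adjusted p = 0.264), and 1288 of all 12403 bodies. No difference of UV changes passed at these genes (3.81%; 0 of them and 2016 of all bodies at an unadjusted p under 0.05). Limma without trend and robust estimation also called none in either. The body calls were the least stable. In WT cells they fell to 0 without unirradiated library 1 or 2 or library 1 at 3 h, and to 1 without any 1 of unirradiated library 3, libraries 1, 2 and 3 at 1 h and library 3 at 3 h. Over all bodies 492 to 1349 and 1446 to 3388 then passed in turn, against 2359 that rose in the main fit. The ASH1L-/- calls fell to 0 without unirradiated library 1 or 2 and to 1 without unirradiated library 3, library 2 or 3 at 1 h or library 1 at 3 h, and, through the shared estimate of spread, also to 1 without unirradiated WT library 1, WT library 1 or 3 at 1 h or WT library 1, 2 or 3 at 3 h. Over all bodies 225 to 244 and 622 to 1160 then passed in turn, against 1017 that rose in the main fit. Scaled to an equal total, CDKN1A and BTG2 turned to −0.328 and −0.0343 kb in WT cells, neither past the threshold.

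**Figure D4:**
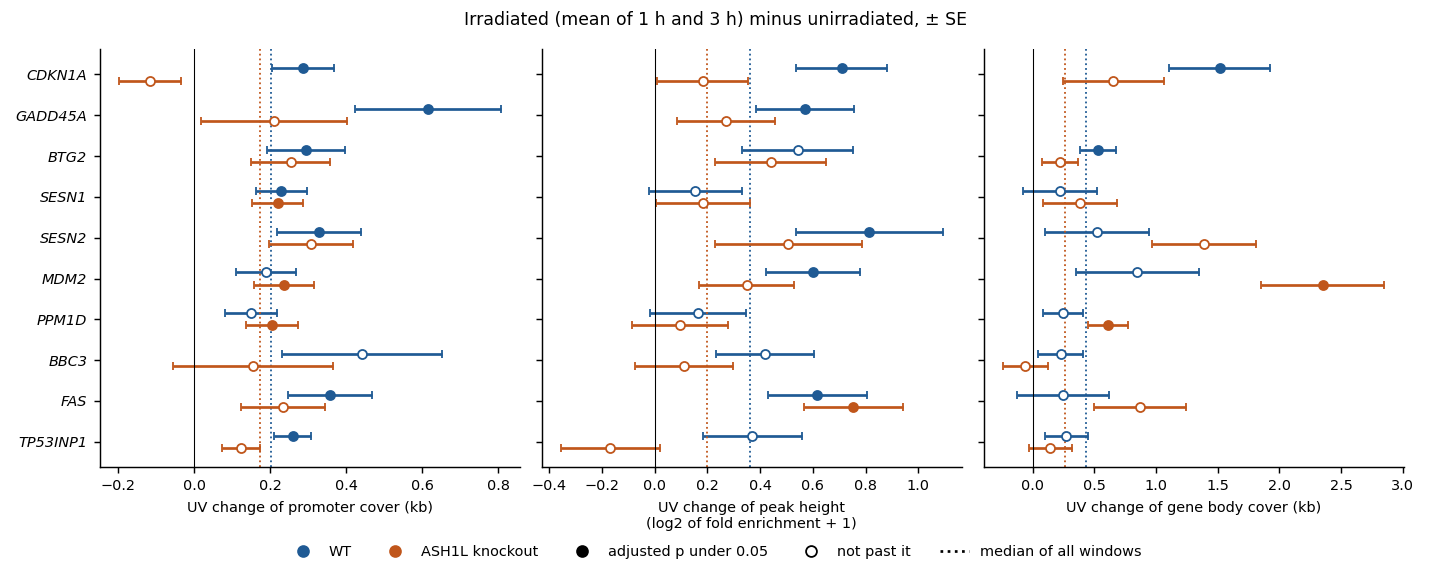
Change after UV (irradiated, the mean of 1 h and 3 h, minus unirradiated, ± SE) at the 10 genes in WT and ASH1L knockout cells, as promoter cover (kb), peak height (log2 of fold enrichment + 1) and gene body cover (kb). Filled points passed an adjusted p of 0.05, dotted lines are the medians of all promoters or bodies, and lengths are not scaled to the library total. CDKN1A lies at 0.286 kb in WT and −0.116 kb in ASH1L-/- cells in the first panel, and MDM2 at 2.35 kb in ASH1L-/- cells in the last.

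The wider pathway was read from 46 further genes in 4 groups, of which 43 promoters could be tested. In WT cells covered length, not scaled to the library total, rose at 14 of them (30.5% of all promoters) and in ASH1L-/- cells at 11 (24%), and none fell in either. By group, in WT and ASH1L-/- cells in turn, these were 4 and 3 of 12 regulators of p53, 3 and 4 of 12 arrest and repair targets, 2 and 2 of 7 apoptosis targets, and 5 and 2 of 12 metabolic and other targets. The largest rises per group in WT cells were at MDM4, which holds p53 inactive (+0.613 kb, adjusted p = 0.00191), the kinase gene PLK3 (+0.305 kb, adjusted p = 0.0223), BAX, which permeabilizes mitochondria (+0.487 kb, adjusted p = 0.00583), and the autophagy gene DRAM1 (+0.576 kb, adjusted p = 0.00126). In ASH1L-/- cells they were at the p53 ubiquitin ligase gene RCHY1 (+0.493 kb, adjusted p = 0.00462), DDB2, which senses UV lesions (+0.526 kb, adjusted p = 0.00322), BAX (+0.296 kb, adjusted p = 0.0489) and DRAM1 (+0.683 kb, adjusted p = 0.000578). The median change was 0.167 kb in WT and 0.125 kb in ASH1L-/- cells, below the 0.203 and 0.174 kb of all promoters.

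Between the unirradiated genotypes covered length was greater in ASH1L-/- cells at 2 of the 43, the checkpoint kinase gene CHEK2 (+0.607 kb, adjusted p = 0.00429) and GDF15, a secreted stress factor (+1.20 kb, adjusted p = 0.0371), where 3.98% of all promoters passed in either direction. Peak height, not centred on the library median, was lower at 7 (10.9% of all promoters) and higher at 1 (0.963%). The median of this contrast was −0.28 over the 43 and −0.30 over all promoters. The largest of these per group and direction were at the repair gene XPC (−1.11 on the log2 scale of height, adjusted p = 0.0102), the death receptor gene TNFRSF10B (−0.89, adjusted p = 0.0158), CYFIP2 (−0.86, adjusted p = 0.0192), the deubiquitinase gene USP7 (−0.81, adjusted p = 0.0252) and, higher, ATR (+0.77, adjusted p = 0.0111). After UV, height, not centred on the library median, rose at 10 of the 43 in WT (27.1% of all promoters) and at 2 in ASH1L-/- cells (2.81%). The largest rises per group in WT cells were at ATR, the kinase that responds to stalled replication (+1.22, adjusted p = 3.22e-05), SFN, which codes for a 14-3-3 protein of G2 arrest (+0.53, adjusted p = 0.0187), APAF1 of the apoptosome (+0.76, adjusted p = 0.00261) and SPATA18, a gene of mitochondrial quality control that is listed at 0 in unirradiated WT cells (adjusted p = 0.00864). Height in ASH1L-/- cells rose at MDM4 (+0.68, adjusted p = 0.0282) and the redox gene TP53I3 (+0.84, adjusted p = 0.0285). The difference of the UV changes in height passed at 1 of the 43, ATR (4.04% of all promoters). In bodies, cover rose at 3 of 39 in WT (19% of all bodies) and 6 in ASH1L-/- cells (8.2%). The difference of the UV changes passed at 2 of the 39 (3.81%), ATM and APAF1, which were named after their values were seen.

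XPC showed no called change at the 10 genes. A peak lay in 6 to 10 of the 10 windows in each of the 19 libraries, against 60.4 to 87.4% of all promoters, so its presence alone marks no gene. At CDKN1A the window held 4.0, 0.95, 0 and 0.232 kb in unirradiated WT libraries, 0.688, 0.853 and 1.41 kb at 1 h and 0.608, 1.71 and 1.11 kb at 3 h. The spread among replicates, from none to the full window, exceeded any difference between times. In unirradiated ASH1L-/- cells it held 4.0, 1.6 and 1.41 kb, then 1.28, 1.03 and 0.372 kb at 1 h and 0.582, 2.89 and 1.13 kb at 3 h.

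By limma, 0 of the 10 promoters passed in each of the 4 contrasts, as did 0 (0%) of all 18991 promoters, where 1482, 965, 987 and 292 promoters were at an unadjusted p under 0.05. Among the 10 genes, GADD45A alone was at an unadjusted p under 0.05, for the change after UV in WT cells, −1.38 ± 0.679 kb with an adjusted p of 0.635, from 3.94, 2.73, 1.4 and 0.529 kb before to 0 to 2.4 kb after UV. Of the 9 bodies none passed either, against 0.687%, 0.00582%, 3.28% and 0% of 17181 bodies for the UV change in WT, the UV change in ASH1L-/- cells, the unirradiated genotypes and the difference of changes. MDM2, for the UV change in ASH1L-/- cells, was the only one of the 9 at an unadjusted p under 0.05 (−0.816 ± 0.337 kb, adjusted p = 0.896), where 828 of all bodies were. Limma without trend and robust estimation called 0 of the 10 genes in all 8 tests.

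The libraries numbered 1 of unirradiated WT and unirradiated ASH1L-/- cells stood apart, with 28.9 and 28.2 kb of XPC summed over the 10 windows, against 4.77 to 18.9 kb in the other 17. Without both, a setting added after the values were seen, 0 of the 10 promoters and bodies passed in any contrast. Within 2.5 Mb of BBC3, XPC peaks covered 20.7% of the DNA in ASH1L-/- cells and 9.04% in WT cells (means of 9 and 10 libraries, ranges 11.1 to 46.7% and 3.20 to 14.9%), whereas around the other 9 genes the means of both genotypes were closer, with PPM1D the furthest apart (16.9% and 13.8%). The part of this cover in the XPC values at BBC3 was not tested.

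**Figure D5:**
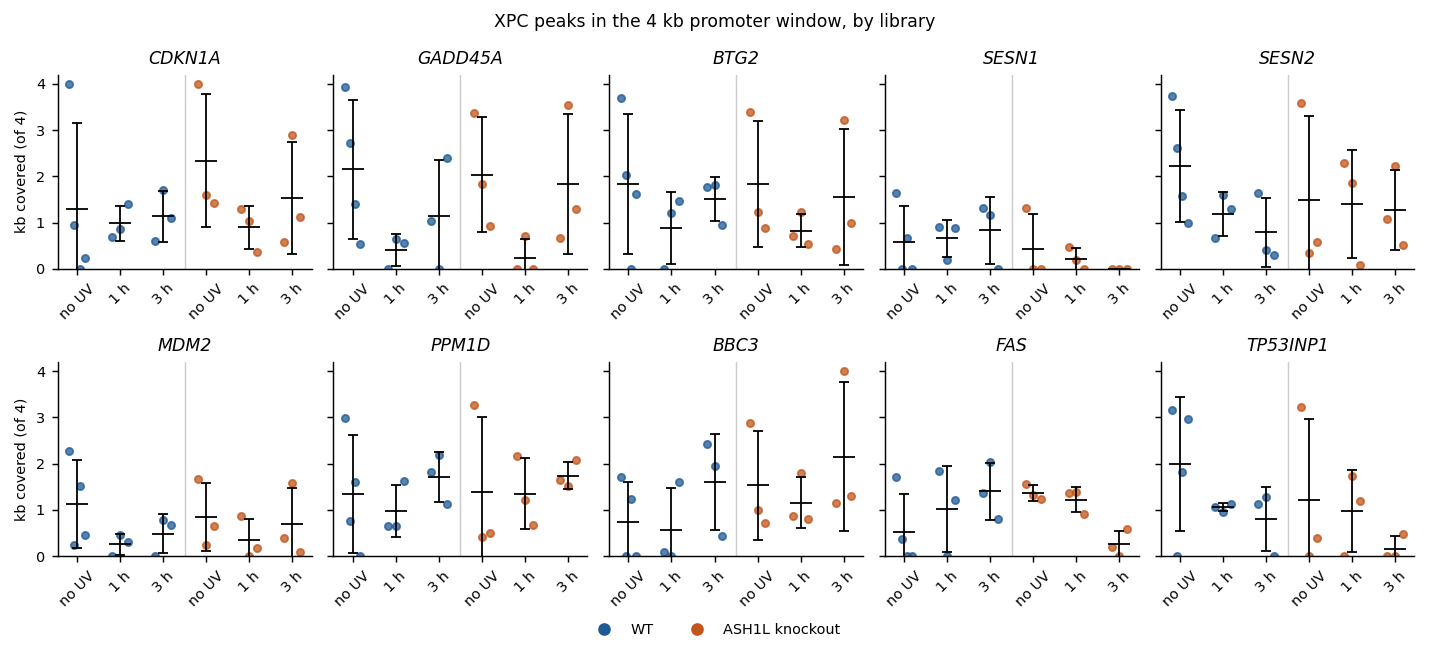
XPC peak cover of the 4 kb promoter window (kb, y axis from 0) at the 10 genes, by genotype and time after UV. Points are libraries (4 for unirradiated WT cells, 3 for the others), and bars are the mean ± SD. The libraries of a group spread widely, at CDKN1A from 0 to 4.0 kb in unirradiated WT cells, and the first unirradiated library of each genotype is high at most genes.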

How the data were processed

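The series lists 61 samples, and 37 peak lists were used here, 1 per library (18 for H3K4me3, 19 for XPC). The other 24 samples (18 inputs, 6 XPC immunoprecipitates of XPC-/- cells) were controls in peak calling. The authors trimmed reads with Trim Galore 0.6.5, aligned them to hg38, chromosome Y left out, using BWA 0.7.17-r1188, and removed low-quality, duplicate and blacklisted reads with SAMtools 1.7, Picard and bedtools 2.29.2. MACS2 2.2.7.1 called peaks (p threshold 0.01), narrow against input for H3K4me3 and broad against XPC-/- cells for XPC. The deposited lists give positions, fold enrichment (a ratio to the control), −log10 p and −log10 q of each peak. The XPC lists also hold weaker peaks (lowest −log10 p from 1.00 to 1.47) and 17 of them end at 500000 peaks. Another 2 hold fewer, and 2 lists have no peak on chromosome X. These caps limit how far cover can be compared.

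Start sites were those of MANE Select transcripts (19016 genes) or else Ensembl canonical ones (954) in GENCODE 44. Covered kb in windows and bodies and log2(fold enrichment + 1) of the highest promoter peak were fitted with limma 3.58.1 in R 4.3.3 (group means in 1 fit per antibody, trend and robust estimation with statmod 1.5.0). Only windows with a peak in 3 or more libraries were kept, all 10 promoters among them. Both irradiated times were averaged. The Benjamini-Hochberg adjustment covered every kept window, and 0.05 was the threshold, in 20 tests of 5 measures and 4 contrasts. All 10 genes are named in each, and of the wider pathway lists the passing gene with the largest change per group and direction at H3K4me3 promoters. Members and lists were chosen with earlier results of these data known. Alternatives were other windows, peak thresholds, scalings, filters, a replicate block, single times and leaving out each library. Scripts were tested on simulated data.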

Additional observations from a re-analysis of the deposited data

Results flagged for a closer look

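Differences of the UV changes between the genotypes (ASH1L-/- minus WT) passed an adjusted p of 0.05 by limma at the following genes. At ATR, a regulator of p53 outside the 10 genes, the height of H3K4me3 changed by +1.22 in WT and by −0.32 in ASH1L-/- cells on the scale log2(fold enrichment + 1), a difference of −1.54 (adjusted p = 0.000349). This was 1 of 43 further promoters tested, where 4.04% of all promoters passed in either direction, so the count is near that share. Before UV the height at ATR was already greater in ASH1L-/- than in WT cells (3.94 against 3.17, +0.77, adjusted p = 0.0111). Gene body cover at ATM, the kinase that responds to double-strand breaks, had UV changes of −0.148 kb (WT) and 0.696 kb (ASH1L-/-), a difference of 0.844 kb (adjusted p = 0.0240). At APAF1 it changed by 0.0208 and 0.370 kb, a difference of 0.349 kb (adjusted p = 0.0308), with no cover in unirradiated ASH1L-/- cells. Within 1 kb of the GADD45A start site, covered length differed by −0.390 kb (adjusted p = 0.0213). In the 2 kb downstream of the FAS start site, which was already full in ASH1L-/- cells before UV, it differed by −0.238 kb (adjusted p = 0.010). At CDKN1A, height at 3 h alone differed by −0.90 (adjusted p = 0.0306), when 13% of all promoters passed. The last 3 are alternatives to the window or time of the main test, in which none of the 10 genes passed. Covered length at CDKN1A passed when unirradiated WT library 3 was left out, as did 381 of all promoters. The only group of 4 libraries was XPC in unirradiated WT cells. Gene by gene, over 10 promoters and 9 bodies, a Dixon ratio (the gap to the nearest value over the range) was taken. It flagged a library as far from the other 3 in 0 of 19 sets of values. With 4 values only an extreme gap is flagged, so this count cannot show that no library stood apart. The CDKN1A promoter, with values from 0 to 4 kb, was not flagged. Library 1 of unirradiated WT cells had the highest cover summed over the 10 windows.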

How the results depend on the processing

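The number of the 10 genes past the threshold moved with several settings. For covered promoter length in WT cells (7 genes), it was 3 within 1 kb of the start site, 4 and 2 in the upstream and downstream 2 kb, 0 when a fold enrichment of 5 or more was asked of each peak, 2 at 3 h alone and, reversed, 5 lower with lengths scaled to an equal total. In ASH1L-/- cells (3 genes) it was 0 downstream, scaled or at 3 h alone and 1 at a fold enrichment of at least 5. Between unirradiated genotypes, and for the difference of UV changes, 0 became 1 within 1 kb and downstream. For height, 5 in WT cells became 1 after centring on each library's median, 8 at 1 h and 1 at 3 h, with 5 in place of 1 in ASH1L-/- cells at 1 h, 1 between unirradiated genotypes became 0 after centring, and 0 for the difference became 1 at 3 h. For bodies, 2 in WT cells became 1 at a fold enrichment of at least 5 and 0 scaled, at 1 h or at 3 h, and 2 in ASH1L-/- cells became 1 scaled and 0 at 1 h. The cause was not tested. Leaving out each library gave 1 to 9 and 0 to 5 genes for covered length in WT and ASH1L-/- cells, 0 to 1 for both comparisons of genotypes, 0 to 7, 0 to 1 and 0 to 3 for height in WT, in ASH1L-/- cells and between unirradiated genotypes, and 0 to 2 and 0 to 3 for bodies, in WT and ASH1L-/- cells. The calls over all promoters and bodies moved too where they are given above. They are not given for every setting, among them a fold enrichment of at least 5, 1 kb in WT cells, and bodies scaled or at 1 h. For those settings the counts of the 10 genes cannot be set against all promoters or bodies. All XPC counts stayed at 0.

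Scaled, values past the threshold in the main test turned negative in WT cells at CDKN1A (−0.449 kb), GADD45A (−0.432), BTG2 (−0.632), SESN1 (−1.14), SESN2 (−0.446), FAS (−0.534) and TP53INP1 (−1.13), as did MDM2 (−0.855) and PPM1D (−0.989). The nearly full windows of SESN1 and TP53INP1 had to turn, since they could not grow with the library total. In ASH1L-/- cells MDM2 (−0.144), SESN1 (−0.323) and PPM1D (−0.243) turned, and in WT bodies CDKN1A (−0.328) and BTG2 (−0.0343). Other reversals were TP53INP1 between unirradiated genotypes within 1 kb (−0.158), CDKN1A in WT (−0.000833) and MDM2 in ASH1L-/- cells (−0.012) downstream, and PPM1D in ASH1L-/- cells at a fold enrichment of at least 5 (−0.186). With a replicate block, covered length in ASH1L-/- cells rose at 4 genes and bodies at 3, SESN2 being added to each (limma adjusted p = 0.0372 and 0.0318), WT kept counts of 7, 5 and 2, and no other count changed. The calls over all promoters and bodies with this block are not given here. Libraries with the same number correlated at −0.111 to 0.294 in promoter cover, and 16 of 18 correlated best with their own number, a hint from the data and not the design. The share of all calls that were higher moved, once scaled or centred, from 98.9% to 72.8% for covered length in ASH1L-/- cells, from 72.2% to 46.8% between unirradiated genotypes and from 17.9% to 35.5% for the difference of UV changes, and for height from 90.2% to 42.5% in ASH1L-/- cells and from 4.70% to 33.0% for the difference. The lists hold no read counts, and no alternative adjusted for sequencing depth.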
